A study of Homo sapiens with 10 samples.

Results

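The collagen gene family was described across 10 bulk RNA-seq libraries of sensory neurons made from human embryonic stem cells. Its members were all entries of the deposited gene tables named COL, a number, A and a number, which gave 44 genes of 30357 named genes. By the form of the protein, 11 are fibrillar, 8 belong to basement membranes, 10 are FACITs (collagens that sit on fibrils and carry interrupted helices), 5 are chains of the beaded filaments of type VI, 4 span the cell membrane and 6 are of other forms. No measured value entered the choice.

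Collagens are trimers of chains wound into a helix, and some types need chains from more than 1 gene. The chains are hydroxylated and folded in the endoplasmic reticulum, trimmed of their propeptides outside the cell and crosslinked by lysyl oxidases. In peripheral nerve, Schwann cells and fibroblasts are the known main sources of fibrillar and basement membrane collagen, while some transmembrane collagens are made by neurons.

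The cells were of the RUES2 line with a tdTomato reporter at AVIL, the gene of advillin, an actin-binding protein of sensory neurons. All cultures carried this reporter and were taken at day 60 in vitro after 1 of 3 differentiation protocols. The protocols were meant to bias neurons toward proprioceptors, which sense muscle stretch (3 libraries), low-threshold mechanoreceptors, which sense touch (3 libraries), or nociceptors, which sense pain (4 libraries). Titles name biological replicates without saying whether they were separate differentiations, so a p-value here reflects variation among these 10 libraries, part of which may be technical. All libraries come from 1 stem cell line, and sorting for the reporter is not stated in the labels used here. Each library is named by its protocol and replicate number, and values of a protocol are listed in the order of these numbers.

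The labelled cell type was checked against marker lists. The 12 pan-neuronal genes summed to 21657, 13448 and 24303 TPM (a level corrected for transcript length and library size) in the proprioceptor libraries, 18146, 23275 and 13677 TPM in the mechanoreceptor libraries and 10350.4, 9367, 7759.7 and 18536 TPM in the nociceptor libraries. The 11 sensory neuron genes summed to between 631 and 2288 TPM, so neuronal RNA was present in every library. AVIL itself stayed between 1.17 and 3.55 TPM. Named genes received between 27891186 and 44541262 estimated counts in a library.

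Libraries of the same protocol stood apart from each other in collagen, and every result below is affected by it. The 44 genes summed to 64.1, 2464 and 221 TPM in the proprioceptor libraries, 130.1, 117 and 2063 TPM in the mechanoreceptor libraries and 2002, 2427, 5261 and 523 TPM in the nociceptor libraries. Proprioceptor library 2 and mechanoreceptor library 3 held far more collagen RNA than the other libraries of their protocols, and nociceptor library 4 held the least of its own. The highest library exceeded the lowest by 38.4-fold under the proprioceptor protocol, 17.6-fold under the mechanoreceptor protocol and 10.1-fold under the nociceptor protocol. The group means were 916 ± 1342, 770.2 ± 1119.6 and 2553 ± 1981 TPM in the proprioceptor, mechanoreceptor and nociceptor libraries (SD, n = 3, 3 and 4), so the protocols overlapped. The mean was 142 TPM without proprioceptor library 2, 124 TPM without mechanoreceptor library 3 and 1651 TPM without nociceptor library 3.

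**Figure D1:**
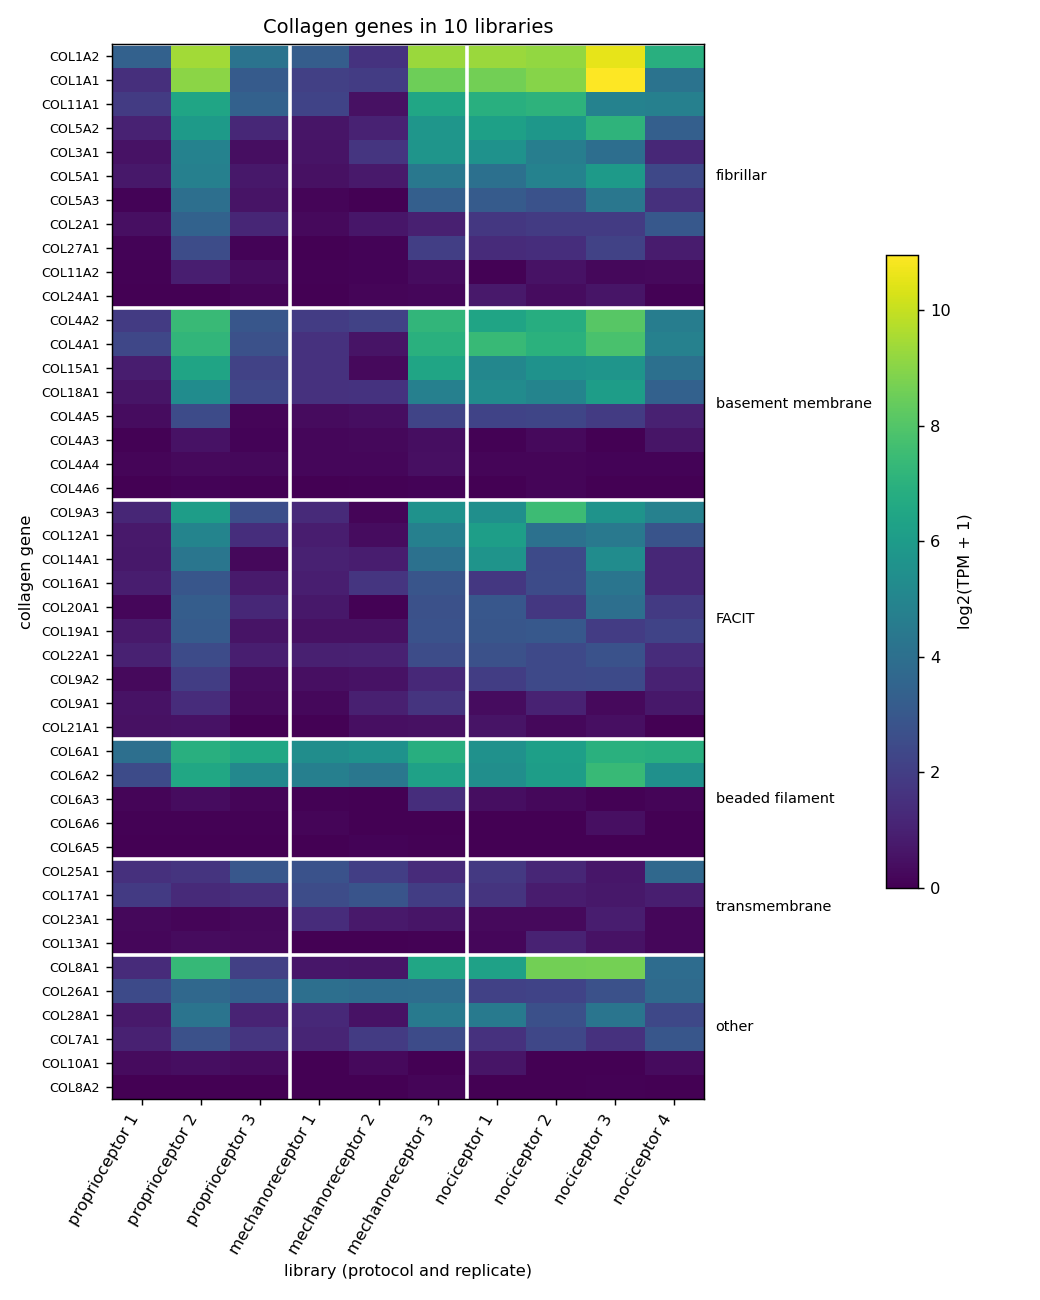
Level of each of the 44 collagen genes (rows, grouped by class) in each of the 10 libraries (columns, grouped by protocol), coloured by log2(TPM + 1). Proprioceptor library 2, mechanoreceptor library 3 and the nociceptor libraries are bright over most fibrillar, basement membrane and FACIT rows, while COL6A1, COL17A1, COL25A1 and COL26A1 show other patterns.

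The same order of libraries ran through most of the family. Of the 30 members with a mean of at least 1 TPM, 28 had their highest proprioceptor value in library 2, 27 their highest mechanoreceptor value in library 3, and 21 their lowest nociceptor value in library 4. All of these held for 21 of the 30 (70%), against 15.9% of the 13941 genes with a mean of at least 1 TPM, a description chosen after the values were seen. COL17A1 and COL25A1 showed none of them. At least 1 TPM was reached by 14, 31 and 20 members in the proprioceptor libraries, by 17, 13 and 31 members in the mechanoreceptor libraries and by 30, 31, 28 and 28 members in the nociceptor libraries.

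The make-up of the collagen RNA varied between libraries too. Fibrillar genes made up 26.3, 59.2 and 17.7% of the family's TPM under the proprioceptor protocol, 13.3, 8.66 and 59.8% under the mechanoreceptor protocol and 64.8, 54.9, 71.5 and 35.6% under the nociceptor protocol. The type VI chains made up 30.6, 8.61 and 56.8% under the proprioceptor protocol, 51.05, 56.4 and 9.35% under the mechanoreceptor protocol and 4.37, 5.76, 5.52 and 31.04% under the nociceptor protocol. COL6A1 was the leading member in the 4 libraries with the least collagen, which were proprioceptor libraries 1 and 3 and mechanoreceptor libraries 1 and 2. COL1A2 led in 5 of the other libraries, and COL1A1 in nociceptor library 3. Between the lowest and the highest library, the summed TPM differed by 369.9-fold for the fibrillar class, 89.7-fold for basement membrane genes, 53.8-fold for the other forms, 35.8-fold for FACITs, 14.8-fold for type VI and 5.26-fold for transmembrane genes.

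**Figure D2:**
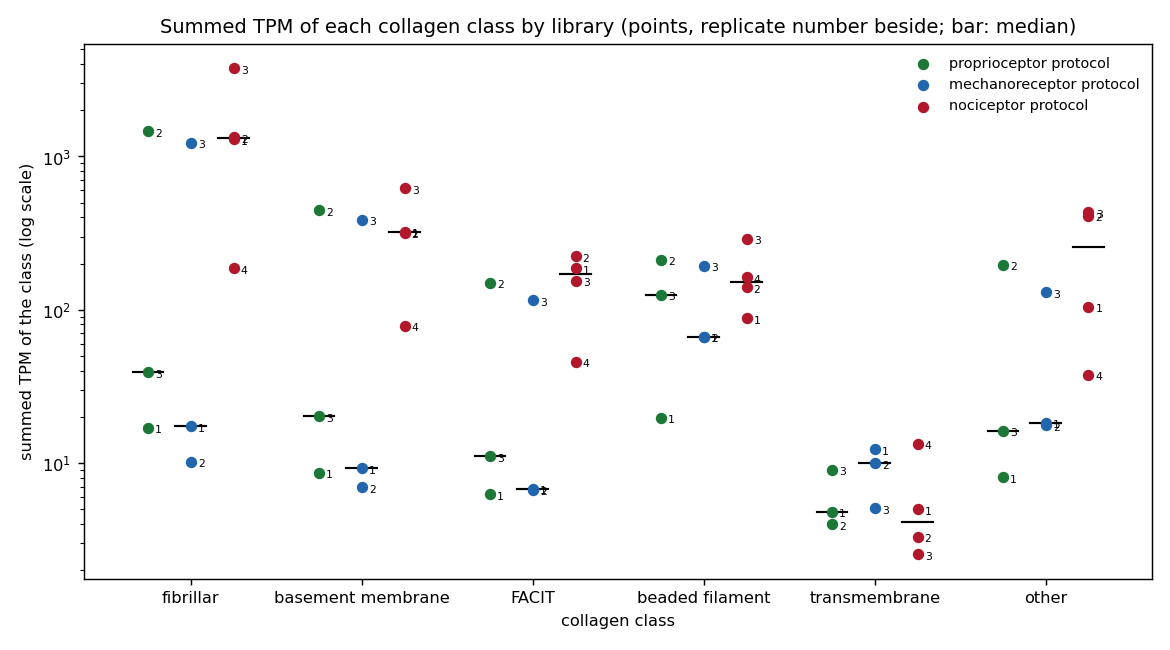
Summed TPM of each collagen class (log scale) in each library, with 1 point per library, its replicate number beside it, and a bar at the median of the protocol. In the fibrillar, basement membrane and FACIT classes proprioceptor library 2 and mechanoreceptor library 3 lie among the nociceptor libraries, while the transmembrane class has 3.97 TPM in proprioceptor library 2 and 9.02 TPM in proprioceptor library 3.

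Markers of some other cell types moved with the collagen levels. The 12 genes of the Schwann and satellite glia list summed to 193, 2816 and 197 TPM in the proprioceptor libraries, 76.5, 98.4 and 2249 TPM in the mechanoreceptor libraries and 4880.2, 3458, 6455 and 609.9 TPM in the nociceptor libraries. Proprioceptor library 2 and mechanoreceptor library 3 were the highest of their protocols and nociceptor library 4 the lowest of its own, as for collagen. Of the 11 glia genes with a mean of at least 1 TPM, 10 showed this same order, against 21 of 30 collagens. SOX10, the transcription factor that defines this lineage, was at 1.33, 24.6 and 0.898 TPM in the proprioceptor libraries, 0.732, 0.0136 and 17.7 TPM in the mechanoreceptor libraries and 34.2, 35.9, 48.2 and 7.91 TPM in the nociceptor libraries. EGR2, a regulator of myelination, stayed below 1 TPM in every library. The pan-neuronal sum was lowest in the library richest in collagen under each protocol, and highest among nociceptor libraries in library 4.

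The mesenchyme list gave a mixed picture. Its 12 genes summed to 470.3, 775 and 455 TPM in the proprioceptor libraries, 519, 740.0 and 1063 TPM in the mechanoreceptor libraries and 894, 624, 1003 and 895 TPM in the nociceptor libraries, with 400.3 to 854 TPM from THY1, which neurons also express. FN1, the gene of fibronectin, was at 4.18, 186 and 7.68 TPM in the proprioceptor libraries, 3.26, 4.57 and 156 TPM in the mechanoreceptor libraries and 334, 114, 347 and 35.8 TPM in the nociceptor libraries. POSTN, the gene of periostin, was at 1.90, 20.3 and 0.489 TPM in the proprioceptor libraries, 0.147, 3.96 and 32.3 TPM in the mechanoreceptor libraries and 97.7, 49.2, 9.98 and 3.44 TPM in the nociceptor libraries. LUM reached 17.5 TPM, FBLN1 51.1 TPM and PDGFRB 10.8 TPM, each highest in a nociceptor library. Of the 7 mesenchyme genes with a mean of at least 1 TPM, 4 showed the order of libraries of collagen, while THY1, FBLN1 and DCN did not. DCN was at 0.566, 2.66 and 5.56 TPM in the proprioceptor libraries and 2.92, 1.36 and 2.40 TPM in the mechanoreceptor libraries. In the nociceptor libraries DCN was at 4.57, 7.74, 8.80 and 2.12 TPM. FBLN1 was lowest among the nociceptor libraries in library 1 (7.87 TPM). PDGFRA, a receptor that defines fibroblasts, had at most 2.57 TPM, and TWIST1, TWIST2 and OGN stayed below 1 TPM in every library.

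The 7 genes of the mural and smooth muscle list summed to 42.8, 115 and 18.3 TPM in the proprioceptor libraries, 15.8, 20.01 and 135 TPM in the mechanoreceptor libraries and 85.8, 228, 197 and 31.2 TPM in the nociceptor libraries, and 4 of the 6 with a mean of at least 1 TPM showed the order of libraries of collagen. ACTA2, smooth muscle actin, was at 3.42, 60.5 and 1.06 TPM in the proprioceptor libraries, 3.25, 2.81 and 67.1 TPM in the mechanoreceptor libraries and 44.1, 62.2, 77.8 and 8.87 TPM in the nociceptor libraries. RGS5 and CNN1 did not show the order. RGS5 was highest in proprioceptor library 1, which held the least collagen, at 26.4 TPM against 4.65 and 4.88 TPM in proprioceptor libraries 2 and 3. CNN1 had its highest proprioceptor value, 7.38 TPM, in library 3. In the osteoblast list IBSP, a bone sialoprotein, was at 0.627, 12.5 and 0.306 TPM in the proprioceptor libraries, 0.234, 0 and 29.97 TPM in the mechanoreceptor libraries and 30.5, 10.00, 36.2 and 2.86 TPM in the nociceptor libraries, while SP7, BGLAP and PHEX, 3 of its 6 genes, stayed below 1 TPM. The 10 chondrocyte genes summed to between 26.2 and 46.02 TPM. Of the 7 with a mean of at least 1 TPM, 1 showed the order of collagen, SOX5 and SOX6 reached 18.7 and 17.8 TPM, and SOX9 and COMP stayed below 1 TPM. The 7 endothelial genes summed to at most 1.43 TPM, with 6 of them below 1 TPM in every library. Of the 5 epithelial genes with a mean of at least 1 TPM, 0 showed the order of collagen, and EPCAM ran from 13.1 to 53.0 TPM. Among the 2 melanocyte genes with such a mean, 1 showed it. The part of glial, mesenchymal, mural and other cells in the collagen levels was not tested, and in bulk RNA fewer cells of a type and less RNA per cell cannot be told apart.

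Against the nociceptor libraries, most collagens averaged lower under the proprioceptor and the mechanoreceptor protocol, but edgeR's test called no member. In proprioceptor against nociceptor libraries the log2 fold change was below 0 for 28 of the 37 members with enough counts to test (47.8% of all 16130 genes tested), with a median of -1.12 against 0.03 over all genes. In mechanoreceptor against nociceptor libraries it was below 0 for 31 of 37 (49.9% of all genes tested), with a median of -1.32 against 0.00. Both comparisons share the nociceptor libraries. With edgeR's quasi-likelihood test and Benjamini-Hochberg adjustment, 0 members and 0% of all genes had an adjusted p under 0.05 in either, and the smallest adjusted p of a member was 0.665 and 0.598.

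At an unadjusted p under 0.05, 1 member was called between proprioceptor and nociceptor libraries (6.19% of all genes): COL24A1, which was lower (3.14% of all genes), with 0 higher (3.05%). Between mechanoreceptor and nociceptor libraries 4 were called (8.18%), COL17A1 and COL26A1 higher (3.59% of all genes) and COL2A1 and COL9A2 lower (4.59%). Between proprioceptor and mechanoreceptor libraries 3 were called (1.49%), COL2A1 higher (0.744% of all genes) and COL17A1 and COL23A1 lower (0.75%). With an adjusted p under 0.05 that comparison gave 0 members and 0% of all genes. An F test over the 3 protocols gave 4 members (5.73%) and 0 with an adjusted p under 0.05 (0% of all genes, smallest member value 0.813). DESeq2 called 0 members between proprioceptor and nociceptor libraries (0.192% of all genes), 0 between proprioceptor and mechanoreceptor libraries (0%), 0 over the 3 protocols (0.49%) and 2, COL17A1 and COL2A1, between mechanoreceptor and nociceptor libraries (0.806%). Between the proprioceptor and mechanoreceptor protocols 28 of 37 members lay above 0 and 9 below, at a median of 0.20 on the log2 scale, against 46.3% lower and a median of 0.04 over all genes. Protocol accounted for a median of 27.6% of a tested member's variance in log2(TPM + 1), against 21.4% over all tested genes, and the standard deviation over libraries was 1.14 against 0.50 (medians).

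These differences depended on the libraries that stood apart. Proprioceptor library 2 and mechanoreceptor library 3 were picked as the richest in collagen of their protocols. Leaving either out lowers the collagens of its protocol by that choice, so the medians and counts without them are descriptive only. Without proprioceptor library 2, the median over members against the nociceptor libraries was -3.40, and 21 of 39 tested members had an unadjusted p under 0.05 (16.3% of all genes). Without mechanoreceptor library 3, the median against the nociceptor libraries was -4.16, and 26 of 40 did (14.6%). An adjusted p under 0.05 was reached by 0 members in both cases, with smallest values of 0.269 and 0.193. The proprioceptor against mechanoreceptor median took opposite signs, -1.99 without proprioceptor library 2 (2 of 39 members, 4.44% of all genes) and 3.01 without mechanoreceptor library 3 (21 of 40, 4.28%). With the mean level of 10 mesenchyme genes, which hold no collagen, as a covariate, the medians were 0.40 for proprioceptor against nociceptor libraries and 0.09 for mechanoreceptor against nociceptor libraries.

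**Figure D3:**
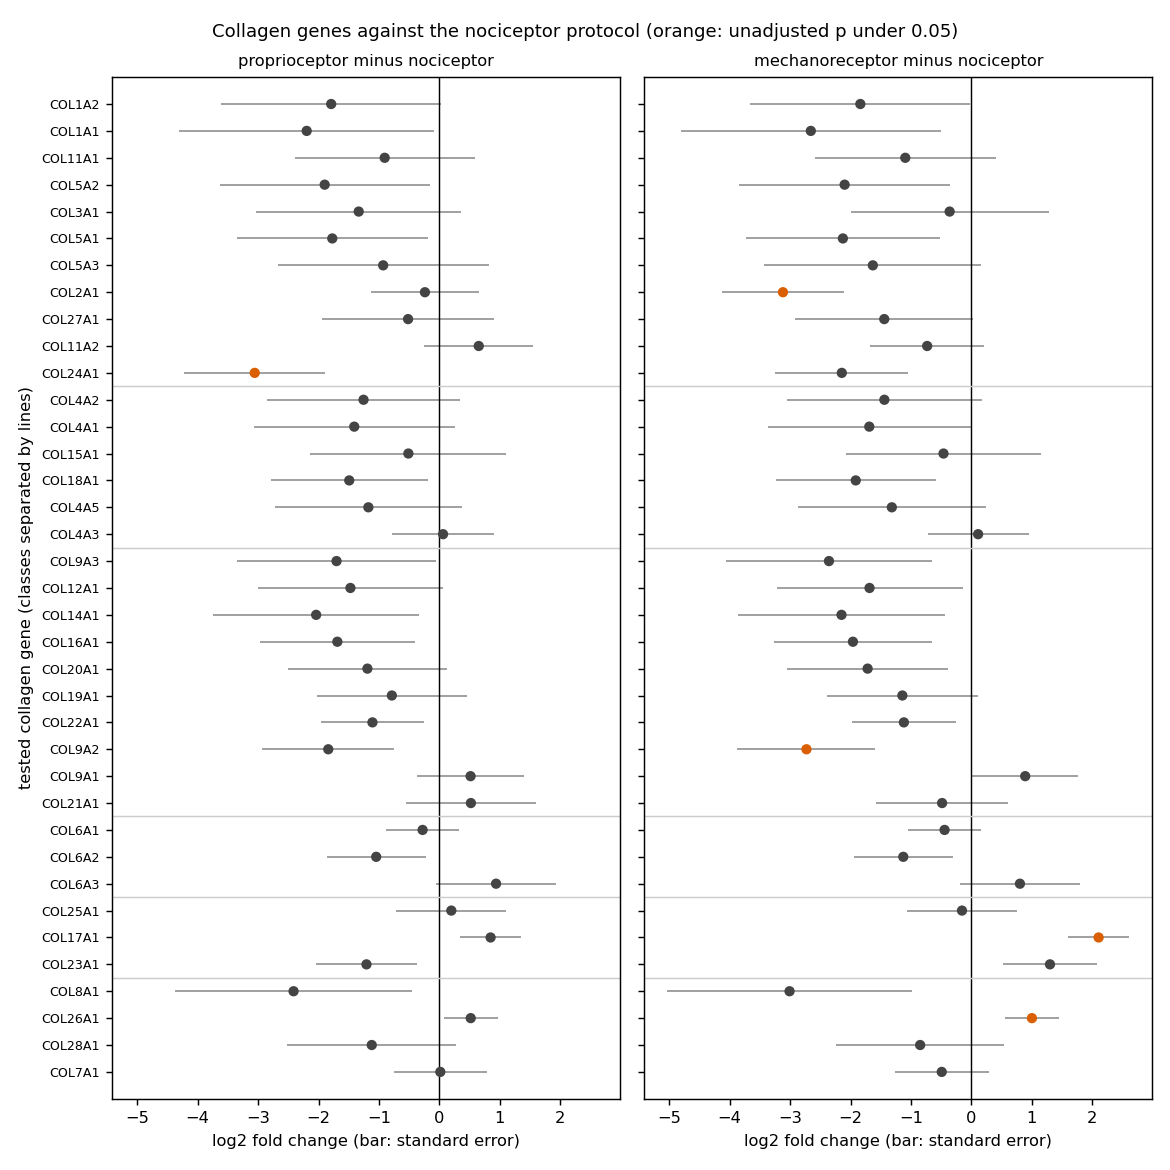
Log2 fold change of each of the 37 tested collagen genes against the nociceptor libraries, for the proprioceptor (left) and mechanoreceptor (right) protocols, with standard errors from edgeR. Most points lie left of 0 with wide bars (2.15 for COL1A1 on the right), COL17A1 lies right of 0 in both panels (0.85 and 2.10), and orange marks an unadjusted p under 0.05.

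Fibrillar collagens, which form the load-bearing fibrils of connective tissue, had the largest summed TPM of the classes in proprioceptor library 2, mechanoreceptor library 3 and every nociceptor library. COL1A2, the α2 chain of type I collagen (chr7:94394895-94431227 of GRCh38.p14), was at 9.64, 691 and 17.1 TPM in the proprioceptor libraries, 8.48, 2.05 and 642 TPM in the mechanoreceptor libraries and 636, 575, 1510.0 and 119 TPM in the nociceptor libraries. COL1A1, the α1 chain (chr17:50184101-50201631), was at 1.77, 536 and 7.81 TPM in the proprioceptor libraries, 3.26, 2.88 and 366 TPM in the mechanoreceptor libraries and 392, 506, 1984 and 17.00 TPM in the nociceptor libraries. Within the proprioceptor libraries COL1A1 varied 303-fold, within the mechanoreceptor libraries 127-fold and within the nociceptor libraries 117-fold, so the protocols overlapped. Its log2 fold change was -2.20 ± 2.11 for proprioceptor against nociceptor libraries (edgeR adjusted p = 0.728) and -2.66 ± 2.15 for mechanoreceptor against nociceptor libraries (adjusted p = 0.702). COL1A1 had the largest standard deviation of log2(TPM + 1) of all members, 3.65, followed by COL1A2 (3.29) and COL8A1 (3.26).

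The type I chains did not keep 1 ratio. Type I collagen is known as a trimer with more α1 than α2 chains, and the COL1A1 to COL1A2 ratio of TPM was 0.184, 0.776 and 0.457 under the proprioceptor protocol, 0.384, 1.40 and 0.571 under the mechanoreceptor protocol and 0.617, 0.880, 1.31 and 0.143 under the nociceptor protocol. By gene TPM, COL1A1 exceeded COL1A2 in mechanoreceptor library 2, where both were low, and in nociceptor library 3, where both were highest. Between the protein-coding transcripts COL1A1-201 and COL1A2-201 this held in mechanoreceptor library 2 (1.88 against 1.73 TPM). It did not hold in nociceptor library 3 (1318 against 1460 TPM). The means of the gene TPM ratio were 0.472 ± 0.297, 0.787 ± 0.543 and 0.739 ± 0.490 (SD, n = 3, 3 and 4), and the ranges overlapped.

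COL11A1, a chain of type XI collagen that nucleates thin fibrils, was at 2.74, 85.03 and 9.60 TPM in the proprioceptor libraries, 3.67, 0.424 and 87.8 TPM in the mechanoreceptor libraries and 119, 134, 28.2 and 26.3 TPM in the nociceptor libraries. It differed from the type I chains in the nociceptor libraries: library 3, the highest for COL1A1, held 28.2 TPM of COL11A1, close to library 4 and far below libraries 1 and 2. COL3A1, which partners type I in distensible tissue, was at 0.456, 27.99 and 0.328 TPM in the proprioceptor libraries, 0.504, 2.27 and 51.1 TPM in the mechanoreceptor libraries and 47.4, 24.4, 14.5 and 1.31 TPM in the nociceptor libraries, with nociceptor library 3 again below libraries 1 and 2. COL5A2, a chain of the type V collagen that limits fibril diameter, was at 1.04, 60.9 and 1.36 TPM in the proprioceptor libraries, 0.537, 1.05 and 52.5 TPM in the mechanoreceptor libraries and 74.3, 54.04, 139.7 and 8.94 TPM in the nociceptor libraries. In the 6 libraries with both type V chains at 1 TPM or more, COL5A1 was 0.208 to 0.513 times COL5A2, while COL3A1 over COL5A2 ran from 0.104 to 2.15 in 7 libraries.

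COL2A1, the collagen of cartilage and of the embryonic notochord, was the fibrillar gene with the smallest p between mechanoreceptor and nociceptor libraries. It was at 0.353, 9.77 and 1.25 TPM in the proprioceptor libraries, 0.206, 0.571 and 0.974 TPM in the mechanoreceptor libraries and 2.44, 2.79, 2.79 and 7.20 TPM in the nociceptor libraries. Its mechanoreceptor libraries lay below all nociceptor libraries, while the proprioceptor libraries spanned both. Groups whose ranges did not overlap, lower in mechanoreceptor than in nociceptor libraries, occurred for 1 of 37 members (1.84% of all genes), and COL2A1 was that gene. Its log2 fold change was -3.12 ± 1.02 for mechanoreceptor against nociceptor libraries (edgeR adjusted p = 0.598), and with DESeq2 it was -3.19 (adjusted p = 0.0235). Between proprioceptor and mechanoreceptor libraries it was 2.88 ± 1.03 (unadjusted p = 0.0181, edgeR adjusted p = 1.00), and 0.91 without proprioceptor library 2.

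Of the other fibrillar genes, COL5A3 reached 19.2 TPM and COL27A1 4.89 TPM, while COL11A2 and COL24A1 stayed below 1 TPM in every library. COL24A1, a minor fibrillar collagen, had 0, 3 and 15 counts in the proprioceptor libraries, 2, 16 and 17 counts in the mechanoreceptor libraries and 69, 48, 76 and 6 counts in the nociceptor libraries. These ranges overlapped in the lowest nociceptor library, library 4, and the log2 fold change between proprioceptor and nociceptor libraries was -3.06 ± 1.17 (unadjusted p = 0.0243, edgeR adjusted p = 0.665). As a class, 10 of 11 fibrillar genes had a log2 fold change below 0 for proprioceptor against nociceptor libraries and 11 of 11 for mechanoreceptor against nociceptor libraries, with 0 passing the adjusted test.

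Basement membrane collagens were led by the α1 and α2 chains of type IV, which form the sheet around Schwann cells and vessels. Type IV genes lie head to head in pairs, and the short stretch between each pair is shown because the genes of a pair start on either side of it. The stretches, from RefSeq on GRCh38.p14, are on the plus strand at chr13:110307158-110307283 (126 bases, the whole gap), chr2:227164489-227164623 (135 bases, the whole gap) and chrX:108439588-108439837 (250 bases of a 379-base gap, next to COL4A5). Capitals mark GGGCGG and CCAAT on either strand, which read CCGCCC and ATTGG on the other strand.
COL4A1 and COL4A2: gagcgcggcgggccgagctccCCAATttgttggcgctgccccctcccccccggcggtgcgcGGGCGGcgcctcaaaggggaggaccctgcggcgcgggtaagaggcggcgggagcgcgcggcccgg
COL4A4 and COL4A3: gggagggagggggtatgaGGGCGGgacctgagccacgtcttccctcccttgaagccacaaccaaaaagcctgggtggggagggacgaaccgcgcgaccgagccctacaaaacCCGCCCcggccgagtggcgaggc
COL4A6 and COL4A5: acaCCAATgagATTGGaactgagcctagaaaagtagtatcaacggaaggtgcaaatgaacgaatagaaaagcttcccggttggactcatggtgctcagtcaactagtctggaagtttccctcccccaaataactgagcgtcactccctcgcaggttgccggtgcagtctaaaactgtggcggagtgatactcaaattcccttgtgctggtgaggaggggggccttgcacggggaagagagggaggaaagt
The first stretch holds 1 GGGCGG and 1 CCAAT, with a GC content of 80.2% and 20 CG dinucleotides. The second holds 2 GGGCGG (68.1% GC, 11 CG) and the third 2 CCAAT (51.2% GC, 8 CG). Over the 300-base windows of 35116 promoters, from 250 bases before to 50 after a start, GGGCGG occurred in 45.0%, CCAAT in 34.6% and TATAAA in 11.5% on either strand. Of the 32 members with such a window, 21 (65.6%), 12 (37.5%) and 7 (21.9%) held them in any of their windows. Members were counted by gene and promoters by window, so the shares are not directly comparable.

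Of the 3 pairs, the levels of RNA separated 1 from the others. COL4A1 was at 4.05, 146 and 5.49 TPM in the proprioceptor libraries, 1.95, 0.514 and 123 TPM in the mechanoreceptor libraries and 165, 125, 220.2 and 27.5 TPM in the nociceptor libraries. COL4A2 was at 2.70, 171 and 6.69 TPM in the proprioceptor libraries, 2.86, 3.45 and 149 TPM in the mechanoreceptor libraries and 82.8, 113, 278 and 23.9 TPM in the nociceptor libraries. The COL4A1 to COL4A2 ratio lay between 0.681 and 1.99 (median 0.853) in the 9 libraries where both reached 1 TPM, all but mechanoreceptor library 2. COL4A3, COL4A4 and COL4A6, chains of the networks of kidney and smooth muscle, stayed below 1 TPM in every library. COL4A5 reached 4.73 TPM in proprioceptor library 2, while its neighbour COL4A6 had at most 0.123 TPM.

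For COL4A1 the log2 fold change was -1.41 ± 1.66 in proprioceptor against nociceptor libraries (edgeR adjusted p = 0.780) and -1.69 ± 1.68 in mechanoreceptor against nociceptor libraries (adjusted p = 0.760). COL15A1, a collagen of the outer face of basement membranes, was at 0.843, 82.5 and 3.43 TPM in the proprioceptor libraries, 1.91, 0.195 and 85.1 TPM in the mechanoreceptor libraries and 32.7, 46.7, 50.8 and 15.4 TPM in the nociceptor libraries. Proprioceptor library 2 and mechanoreceptor library 3 lay above every nociceptor library, and its log2 fold changes were -0.51 ± 1.62 and -0.46 ± 1.62 in these comparisons (edgeR adjusted p = 0.930 and 0.946). COL18A1, the source of endostatin, ran from 0.546 to 66.97 TPM. Of the 6 tested genes of the class, 5 averaged lower in each comparison with the nociceptor libraries, with 0 passing the adjusted test.

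Among FACITs, COL9A3, a chain of type IX collagen, was the highest. It was at 1.27, 67.6 and 5.24 TPM in the proprioceptor libraries, 1.46, 0.102 and 46.7 TPM in the mechanoreceptor libraries and 42.8, 179, 48.7 and 27.1 TPM in the nociceptor libraries. Nociceptor library 2 held far more than any other library, and the protocols overlapped. Its partner chains were scarce: COL9A2 had at most 4.53 TPM and COL9A1 at most 2.18 TPM. In the 6 libraries where COL9A3 and COL9A2 both reached 1 TPM, the COL9A3 to COL9A2 ratio ran from 10.8 to 40.6. COL9A2 was at 0.198, 2.96 and 0.280 TPM in the proprioceptor libraries, 0.351, 0.463 and 1.40 TPM in the mechanoreceptor libraries and 2.92, 4.40, 4.53 and 1.07 TPM in the nociceptor libraries, and its log2 fold change was -1.84 ± 1.09 for proprioceptor against nociceptor libraries (unadjusted p = 0.121, edgeR adjusted p = 0.666) and -2.73 ± 1.14 for mechanoreceptor against nociceptor libraries (unadjusted p = 0.0363, edgeR adjusted p = 0.598). COL9A1 had log2 fold changes above 0, with 0.52 ± 0.88 and 0.89 ± 0.88 (edgeR adjusted p = 0.857 and 0.757), at 10 to 101 counts per library.

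COL12A1, which coats type I fibrils, was at 0.661, 29.8 and 1.67 TPM in the proprioceptor libraries, 0.822, 0.296 and 26.1 TPM in the mechanoreceptor libraries and 68.7, 16.02, 20.3 and 6.25 TPM in the nociceptor libraries. It was highest in nociceptor library 1, as was its relative COL14A1, which ran from 0.160 to 49.9 TPM, whereas the type I chains were highest in nociceptor library 3. COL16A1 and COL20A1 had their highest values, 18.1 and 15.02 TPM, in nociceptor library 3. COL19A1 reached 7.91 TPM in proprioceptor library 2, COL22A1 reached 5.71 TPM in nociceptor library 3, and COL21A1 stayed below 1 TPM everywhere. Of the 10 FACITs, 8 averaged lower in proprioceptor than in nociceptor libraries and 9 in mechanoreceptor than in nociceptor libraries, with 0 passing the adjusted test.

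Type VI collagen, which forms beaded filaments around cells, varied less between libraries than the family as a whole. COL6A1 was at 14.8, 119.6 and 91.4 TPM in the proprioceptor libraries, 40.6, 46.7 and 114 TPM in the mechanoreceptor libraries and 45.5, 72.7, 123 and 118 TPM in the nociceptor libraries. COL6A2 was at 4.64, 92.3 and 33.8 TPM in the proprioceptor libraries, 25.7, 19.4 and 76.7 TPM in the mechanoreceptor libraries and 41.7, 66.8, 167 and 44.7 TPM in the nociceptor libraries. Proprioceptor library 1 was the lowest for both, and the protocols overlapped. Where the family's sum differed by 82.0-fold between libraries, COL6A1 differed by 8.32-fold and COL6A2 by 35.9-fold. The group means of the gene COL6A1 were 75.3 ± 54.2, 67.2 ± 40.98 and 89.8 ± 37.2 TPM in proprioceptor, mechanoreceptor and nociceptor libraries (SD, n = 3, 3 and 4), and its log2 fold changes against nociceptor libraries were -0.28 ± 0.60 for the proprioceptor and -0.44 ± 0.60 for the mechanoreceptor protocol (edgeR adjusted p = 0.892 and 0.836).

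The other chains of type VI were scarce in the RNA. The known type VI unit joins COL6A1 and COL6A2 with COL6A3, or with COL6A5 or COL6A6 in its place. COL6A3 had 13, 36 and 8 counts in the proprioceptor libraries, 5, 3 and 50 counts in the mechanoreceptor libraries and 23, 14, 3 and 7 counts in the nociceptor libraries, which is at most 1.69 TPM. COL6A5 and COL6A6 had at most 8 and 10 counts in a library and were not tested. COL6A1 exceeded COL6A2 in 9 of 10 libraries, with a ratio of 3.19, 1.30 and 2.70 under the proprioceptor protocol, 1.58, 2.40 and 1.49 under the mechanoreceptor protocol and 1.09, 1.09, 0.741 and 2.63 under the nociceptor protocol. These ratios are of gene TPM, by which nociceptor library 3 was the exception. Between the protein-coding transcripts COL6A1-201 and COL6A2-201, COL6A1 was the lower in nociceptor libraries 1, 2 and 3. Their levels there were 28.995 against 36.94 TPM, 51.25 against 55.59 TPM and 100.37 against 145.12 TPM. In all other libraries COL6A1-201 was the higher. In type VIII, a network collagen, COL8A2 was scarce in the RNA as well, with 0 to 12 counts per library. COL8A1 was at 1.52, 160.5 and 3.23 TPM in the proprioceptor libraries, 0.570, 0.540 and 89.7 TPM in the mechanoreceptor libraries and 76.8, 398, 406 and 13.50 TPM in the nociceptor libraries.

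**Figure D4:**
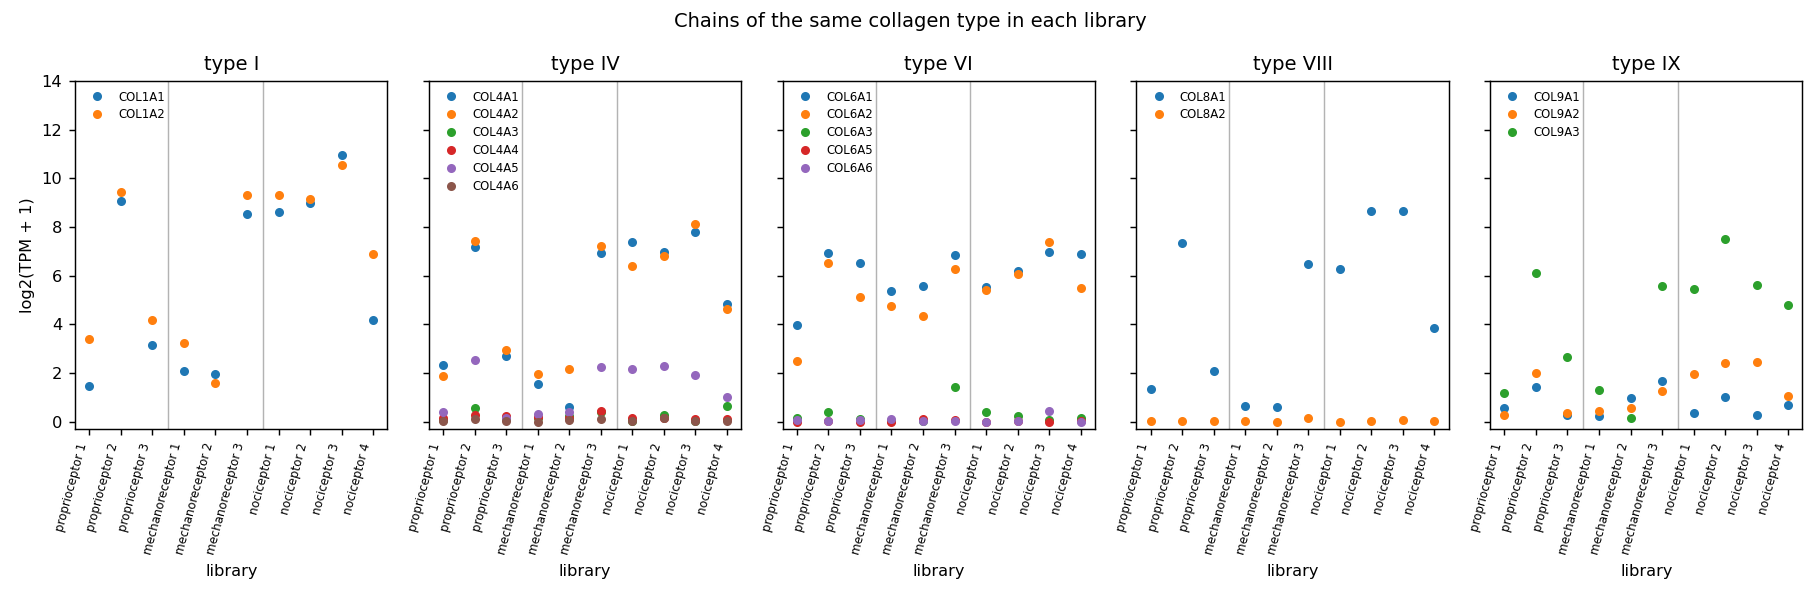
Level of each chain of collagen types I, IV, VI, VIII and IX, as log2(TPM + 1), in each library (1 point per gene and library, with protocols separated by vertical lines). COL6A3, COL6A5, COL6A6, COL8A2 and the α3, α4 and α6 chains of type IV reach no more than the 1.69 TPM of COL6A3 in mechanoreceptor library 3, while COL6A1 lies between 14.8 and 123 TPM.

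COL8A1 had the largest standard deviation of log2(TPM + 1) outside the fibrillar class. Its group means were 55.1 ± 91.3, 30.3 ± 51.4 and 224 ± 208 TPM in proprioceptor, mechanoreceptor and nociceptor libraries (SD, n = 3, 3 and 4). Its log2 fold change was -2.41 ± 1.96 for proprioceptor against nociceptor libraries (edgeR adjusted p = 0.694) and -3.01 ± 2.02 for mechanoreceptor against nociceptor libraries (adjusted p = 0.654). COL28A1, a collagen of peripheral nerve known from Schwann cells in mouse, was at 0.690, 17.8 and 1.15 TPM in the proprioceptor libraries, 1.38, 0.452 and 21.4 TPM in the mechanoreceptor libraries and 21.6, 5.42, 18.1 and 4.21 TPM in the nociceptor libraries. Proprioceptor library 2 and mechanoreceptor library 3 were close to nociceptor libraries 1 and 3. COL7A1, the anchoring fibril collagen, had the smallest standard deviation of log2(TPM + 1) of the members with a mean of at least 1 TPM (0.65) and ran from 1.01 to 6.55 TPM, and COL10A1 of hypertrophic cartilage stayed below 1 TPM everywhere.

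The transmembrane class did not share the family's order of libraries. COL17A1, the transmembrane collagen of hemidesmosomes (chr10:104031286-104085880), was at 2.60, 1.47 and 1.74 TPM in the proprioceptor libraries, 4.84, 6.10 and 2.93 TPM in the mechanoreceptor libraries and 2.10, 0.763, 0.629 and 0.878 TPM in the nociceptor libraries. Every mechanoreceptor library lay above every nociceptor and every proprioceptor library, and the highest nociceptor library, library 1, fell within the proprioceptor range. Protocol accounted for 76.96% of its variance in log2(TPM + 1), the largest share of any member. The 250 bases before its start are shown because it was the member with the smallest p in the F test (chr10:104085881-104086130 of GRCh38.p14, minus strand, from RefSeq). Capitals mark TATAAA, which starts 206 bases before the start, and ATTGG, the reverse complement of CCAAT, which begins 101 bases before it.
COL17A1: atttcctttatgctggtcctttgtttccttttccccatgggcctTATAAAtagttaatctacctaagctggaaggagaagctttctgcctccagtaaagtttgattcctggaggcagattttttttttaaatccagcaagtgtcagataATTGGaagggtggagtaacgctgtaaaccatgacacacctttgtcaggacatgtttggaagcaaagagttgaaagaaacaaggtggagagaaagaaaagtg
The stretch has 40.4% GC, 1 CG dinucleotide and no GGGCGG, whereas the stretch between COL4A1 and COL4A2 has 20 CG dinucleotides in 126 bases.

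For COL17A1 the log2 fold change was 0.85 ± 0.50 in proprioceptor against nociceptor libraries (unadjusted p = 0.122, edgeR adjusted p = 0.666). In mechanoreceptor against nociceptor libraries it was 2.10 ± 0.51 (unadjusted p = 0.00173, edgeR adjusted p = 0.598), and with DESeq2 it was 2.05 (adjusted p = 0.0235). In proprioceptor against mechanoreceptor libraries it was -1.26 ± 0.55 (unadjusted p = 0.0425, edgeR adjusted p = 1.00). Between 23 and 359 counts per library stood behind these values. The counts of its full-length transcript, COL17A1-209 (5610 nt), were also higher in every mechanoreceptor library than in any other, with 57, 57 and 76 counts in the proprioceptor libraries, 236, 276 and 129 counts in the mechanoreceptor libraries and 81, 66, 16 and 22 counts in the nociceptor libraries.

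COL26A1, a secreted collagen with an EMI domain, was also highest in the mechanoreceptor libraries. It was at 4.54, 12.05 and 9.38 TPM in the proprioceptor libraries, 14.96, 13.6 and 14.2 TPM in the mechanoreceptor libraries and 3.32, 3.65, 5.56 and 12.9 TPM in the nociceptor libraries. The mechanoreceptor libraries averaged 14.3 ± 0.675 TPM and the nociceptor libraries 6.37 ± 4.49 TPM (SD, n = 3 and 4), and nociceptor library 4 came close to the mechanoreceptor range. Its log2 fold change was 1.00 ± 0.44 (unadjusted p = 0.0455, edgeR adjusted p = 0.598). COL17A1 and COL26A1 were the 2 members of 37 with all mechanoreceptor libraries above all nociceptor libraries, which held for 8.05% of all genes. They and COL23A1 were also the 3 of 37 with all proprioceptor libraries below all mechanoreceptor libraries, which held for 5.02% of all genes. Of the 37, 0 had all proprioceptor libraries above all mechanoreceptor libraries (0.868% of all genes). COL10A1 and COL13A1, too low to be among the 37, did so by TPM. The counts of COL10A1 overlapped, at 8, 1 and 18 in the proprioceptor and 2, 9 and 2 in the mechanoreceptor libraries. In none of the 37 were the proprioceptor and nociceptor libraries apart, in either direction (1.49% of all genes higher and 1.45% lower).

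COL23A1, a transmembrane collagen shed from the cell surface, was at 0.193, 0.104 and 0.177 TPM in the proprioceptor libraries, 1.64, 0.693 and 0.520 TPM in the mechanoreceptor libraries and 0.206, 0.2001, 0.856 and 0.144 TPM in the nociceptor libraries. Its proprioceptor libraries lay below all mechanoreceptor libraries, and its log2 fold change between them was -2.51 ± 0.89 (unadjusted p = 0.0174, edgeR adjusted p = 1.00), at 5 to 9 counts per proprioceptor library. COL25A1, a transmembrane collagen of neurons that motor axons need to reach muscle in mouse, was at 1.83, 2.16 and 6.87 TPM in the proprioceptor libraries, 5.78, 3.11 and 1.54 TPM in the mechanoreceptor libraries and 2.55, 1.27, 0.596 and 12.1 TPM in the nociceptor libraries. Nociceptor library 4 and proprioceptor library 3 were highest and nociceptor library 3, the richest in other collagens, was lowest. Protocol accounted for 1.23% of its variance, and its log2 fold changes against nociceptor libraries were 0.20 ± 0.91 for the proprioceptor and -0.16 ± 0.91 for the mechanoreceptor protocol (edgeR adjusted p = 0.956 and 0.970). COL13A1, a transmembrane collagen of the neuromuscular junction, had at most 27 counts in a library and was left out by the filter on low counts.

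**Figure D5:**
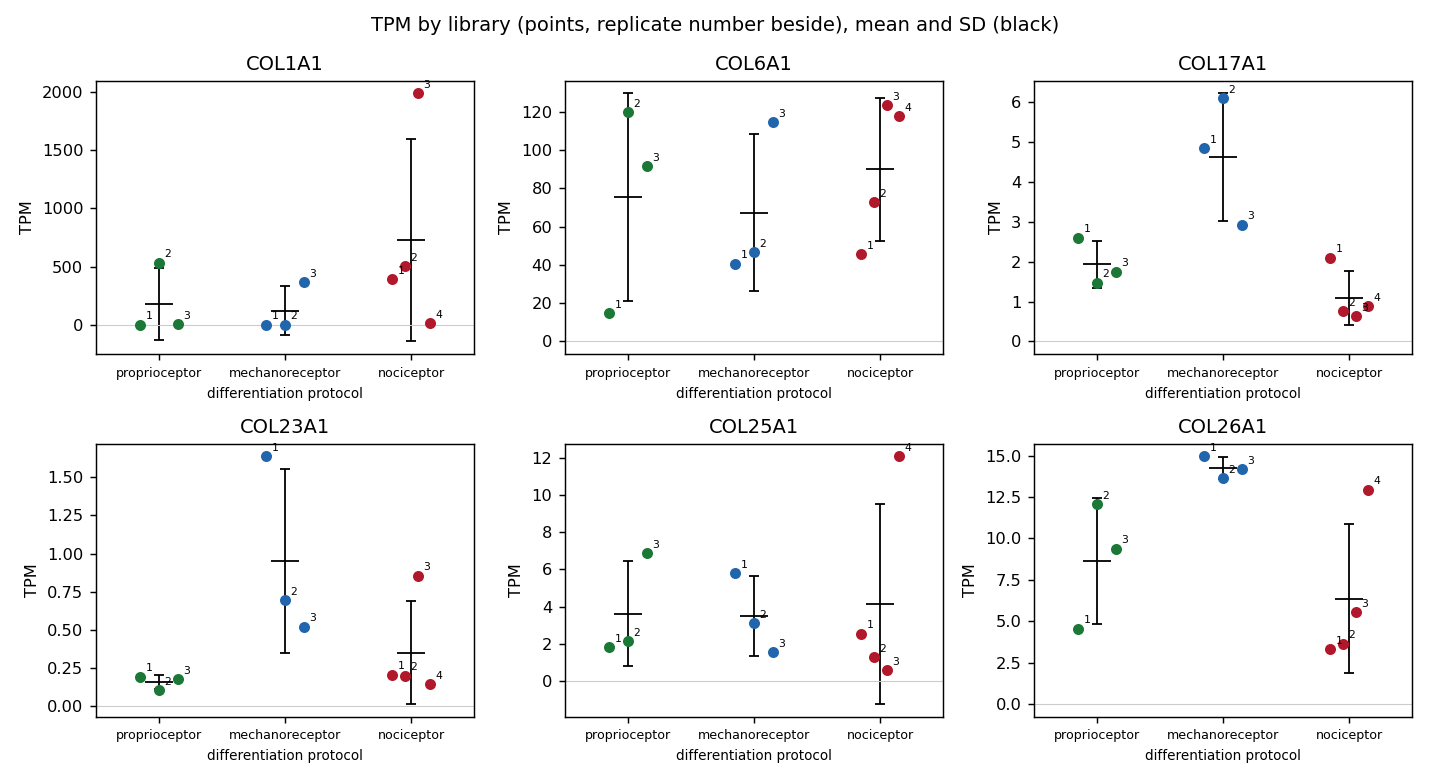
TPM of COL1A1, COL6A1, COL17A1, COL23A1, COL25A1 and COL26A1 in each library (points, with the replicate number beside each), with the mean and SD of each protocol in black. COL1A1 is high in proprioceptor library 2, mechanoreceptor library 3 and nociceptor libraries 1 to 3, whereas COL17A1 has its highest values, 4.84 and 6.10 TPM, in mechanoreceptor libraries 1 and 2.

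The enzymes and chaperones that build collagen were high and low in the same libraries as collagen, over a smaller range. The 20 genes of chain synthesis and folding summed to 989, 3943 and 783 TPM in the proprioceptor libraries, 870.0, 989.5 and 3555 TPM in the mechanoreceptor libraries and 2968, 3999, 6137 and 1676 TPM in the nociceptor libraries. Of the 19 with a mean of at least 1 TPM, 15 had the highest proprioceptor value in library 2, the highest mechanoreceptor value in library 3 and the lowest nociceptor value in library 4. P4HB, a subunit of prolyl 4-hydroxylase, was at 78.5, 633 and 93.3 TPM in the proprioceptor libraries, 107, 121 and 575 TPM in the mechanoreceptor libraries and 473, 596, 1028 and 211 TPM in the nociceptor libraries. PPIB, a prolyl isomerase of the collagen-modifying complex, ran from 407 to 2833 TPM. PLOD2, the lysyl hydroxylase of the telopeptides, ran from 1.43 to 12.6 TPM. Log2 fold changes were below 0 for 20 of 20 genes in proprioceptor against nociceptor libraries (median -1.06) and 17 of 20 in mechanoreceptor against nociceptor libraries (median -1.10), with 0 passing edgeR's adjusted test and 0 DESeq2's.

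Propeptide cleavage and crosslinking genes spanned a wider range, with sums between 40.05 and 1902 TPM. LOXL2, a lysyl oxidase that crosslinks type IV collagen, was at 6.35, 409.8 and 13.8 TPM in the proprioceptor libraries, 3.57, 2.13 and 351 TPM in the mechanoreceptor libraries and 270.3, 504, 1134 and 79.1 TPM in the nociceptor libraries. LOXL3, a related oxidase, ran from 5.05 to 301 TPM and ADAMTS2, the peptidase that removes the amino propeptide of fibrillar collagens, from 0.349 to 7.82 TPM. In proprioceptor against nociceptor libraries 10 of 13 genes were below 0 (median -1.35) and in mechanoreceptor against nociceptor libraries 11 of 13 (median -1.52). With edgeR 0 passed the adjusted test in either, and DESeq2 called 1, ADAMTS2, in the first and 0 in the second. ADAMTS2 had a log2 fold change of -2.59 ± 0.73 in proprioceptor against nociceptor libraries (edgeR adjusted p = 0.665).

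Collagen receptors were led by ITGB1, the shared β1 subunit of the collagen-binding integrins, at 70.2, 419.9 and 206 TPM in the proprioceptor libraries, 298, 167 and 433 TPM in the mechanoreceptor libraries and 1275, 663, 708 and 289 TPM in the nociceptor libraries. CD44, a matrix receptor, was at 4.81, 86.6 and 26.9 TPM in the proprioceptor libraries, 3.92, 6.45 and 92.1 TPM in the mechanoreceptor libraries and 89.8, 163, 124 and 22.6 TPM in the nociceptor libraries. Of the 12 tested receptors, 11 were below 0 in proprioceptor against nociceptor libraries (median -1.32) and 11 in mechanoreceptor against nociceptor libraries (median -1.01). ITGA10, GP6 and LAIR1 stayed below 1 TPM in every library. Among genes of collagen breakdown, MMP2, a gelatinase, was at 8.13, 312 and 29.4 TPM in the proprioceptor libraries, 36.05, 38.8 and 205 TPM in the mechanoreceptor libraries and 295, 558, 1346 and 86.4 TPM in the nociceptor libraries, and TIMP1, an inhibitor of these proteases, ran from 98.1 to 2245 TPM. Of the 12 tested, 12 were below 0 in proprioceptor against nociceptor libraries (median -1.22) and 11 in mechanoreceptor against nociceptor libraries (median -1.18). Between proprioceptor and mechanoreceptor libraries these 4 lists were split, with 11 of 20, 9 of 13, 6 of 12 and 7 of 12 genes higher, and 0 genes of the receptor and breakdown lists passed either tool's adjusted test in any comparison.

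Transcript levels bear on how gene values are read, since a gene's TPM adds up all its transcripts. For the 18 members at 5 TPM or more in at least 3 libraries whose matched transcripts summed to the gene entry, a median of 89.3% of the TPM and 97.5% of the counts lay in transcripts annotated as protein-coding. COL4A1 was an exception: its coding share ran between 20.4% and 49.3% of the TPM, and the retained-intron transcript COL4A1-213 (2476 nt) held between 49.2% and 79.4%. COL11A1 had between 22.7% and 42.4% of its TPM in coding transcripts, COL20A1 between 34.1% and 48.8% and COL1A1 between 51.5% and 77.5%. For COL6A1 the share ran between 32.2% and 84.5%, with 67.8% in the short COL6A1-206 in proprioceptor library 1 and 52.8% in nociceptor library 4. COL5A2, COL5A1, COL14A1 and COL6A2 had at least 93.8% in coding transcripts in each library measured. By counts, the coding share of COL1A1 ran between 93.01% and 97.8%, and that of COL11A1 between 49.98% and 62.7%. It ran between 40.96% and 73.2% of the counts for COL4A1 and between 46.04% and 90.9% for COL6A1. COL20A1 went the other way, with between 24.6% and 33.7% of its counts in coding transcripts. Transcripts of 1 gene overlap, so these shares carry an error of estimation that the deposited values do not show.

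At the low end, 10 members stayed below 1 TPM in every library: COL4A3, COL4A4, COL4A6, COL6A5, COL6A6, COL8A2, COL10A1, COL11A2, COL21A1 and COL24A1. The 7 members left out of the test by the filter on low counts were COL4A4, COL4A6, COL6A5, COL6A6, COL8A2, COL10A1 and COL13A1, with at most 27 counts in a library. Without that filter all 44 were tested, and COL13A1 was the 1 added member with an unadjusted p under 0.05. It made 5 members between mechanoreceptor and nociceptor libraries, where 1769 of 24450 genes had such a p, and 4 between proprioceptor and mechanoreceptor libraries, where 423 of 24450 did, with 0 members passing edgeR's adjusted test. COL13A1 had 5, 5 and 8 counts in the proprioceptor libraries, 0, 0 and 3 counts in the mechanoreceptor libraries and 6, 27, 16 and 5 counts in the nociceptor libraries. At the other end, 7 members reached 1 TPM in every library: COL1A1, COL1A2, COL4A2, COL6A1, COL6A2, COL7A1 and COL26A1.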

How the data were processed

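Bulk RNA of 10 libraries was measured after extraction with Trizol and cDNA synthesis with the Clontech Ultra Low v4 kit, per the labels' protocols. The submitters' processing notes name kallisto 0.50.1 and GRCh38.p14. For genes and transcripts, the authors' deposited values are estimated counts, already whole numbers, and TPM. How transcripts were summed to symbols is not given in the sources used here. An entry with a blank name (0.733% to 1.66% of counts) entered neither library sizes nor tests. The kit does not mark strand, so overlapping antisense genes cannot be told apart.

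Counts were tested with edgeR 4.0.16 in R 4.3.3 (filterByExpr, TMM, quasi-likelihood, 1 mean per protocol over all 10 libraries, Benjamini-Hochberg over 16130 genes, threshold 0.05, two-sided). DESeq2 1.42.0 and limma 3.58.1 were alternatives, and the edgeR script was tested on simulated data. The first-named protocol minus the second gives each fold change, and ± is a standard error for fold changes and an SD for levels. Chi-square between replicates was at least 131 for each degree of freedom, far above sampling noise. The 44 members, the lists and the tests were chosen with earlier results of these data known. Genes named in the text are the highest of each class, those with the smallest p in each comparison, those of the chain ratios and those with the smallest or largest spread, with a few per pathway list. Other genes were named after their values were seen. Transcripts were named through GENCODE v29, and coordinates and sequences came from RefSeq on GRCh38.p14, with promoter windows for 32 of 44 members. Counts of helix repeats in the proteins were planned and not run, as no protein table was used here. Intervals were not given, since PCR reads without molecular identifiers are not independent molecules.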

Additional observations from a re-analysis of the deposited data

Results flagged for a closer look

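Of 46 levels, sums and ratios checked in the 4 nociceptor libraries, 5 had 1 library whose gap to the nearest of the others exceeded the share of the range that Dixon's test allows. Chance flags about 1 in 20 such groups. COL17A1 was at 2.10 TPM in nociceptor library 1 and 0.629 to 0.878 TPM in the other nociceptor libraries, and leaving that library out gave a log2 fold change of 2.37 for mechanoreceptor against nociceptor libraries. COL23A1 was at 0.856 TPM in nociceptor library 3 and 0.144 to 0.206 TPM in the others. COL25A1 was at 12.1 TPM in nociceptor library 4 and 0.596 to 2.55 TPM in the others. COL2A1 was at 7.20 TPM in nociceptor library 4 and 2.44 to 2.79 TPM in the others, and without that library its log2 fold change for mechanoreceptor against nociceptor libraries was -2.58. COL9A3 was at 179 TPM in nociceptor library 2 and 27.1 to 48.7 TPM in the others. The groups of 3 libraries were not checked this way.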

How the results depend on the processing

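The count of 0 members with an adjusted p under 0.05 was the same under RLE size factors, no filter on low counts, limma on log2(TPM + 1) or log2(TPM + 0.1), with or without a filter on TPM, and the mesenchyme covariate, and without any 1 library (0 to 0). DESeq2 moved it to 2 for mechanoreceptor against nociceptor libraries, where COL17A1 (2.05) and COL2A1 (-3.19) passed, and the cause was not tested. The median over members ran, with 1 library left out, from -3.40 to -0.37 for proprioceptor against nociceptor libraries, -4.16 to -0.83 for mechanoreceptor against nociceptor libraries and -1.99 to 3.01 for proprioceptor against mechanoreceptor libraries. The lowest came without proprioceptor library 2, without mechanoreceptor library 3 and without proprioceptor library 2, and 3.01 came without mechanoreceptor library 3. With the mesenchyme covariate the first and second median turned sign: the medians were 0.40, 0.09 and 0.14, and 8, 12 and 13 of 37 members were below 0, against 28, 31 and 9 without it. The cause was not tested. Members at an unadjusted p under 0.05 numbered 0 to 21, 2 to 26 and 0 to 21 without 1 library in these comparisons. Where these counts were highest, 16.3%, 14.6% and 4.28% of all genes had such a p. In the F test members numbered 1 to 24, and the share over all genes is not given here. With limma the second count was 8 to 10, where 1718 of 24572 and 1249 of 14428 genes had such a p. Log2 fold changes of the members with the smallest p kept their sign in each alternative that gave them a value. COL23A1 and COL24A1 failed the TPM filter and have none in limma with it.

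Replicate numbers come from the titles, and deviations of same-numbered libraries correlated from -0.63 to 0.49. Differently numbered libraries reached 0.79 (mechanoreceptor library 3 with proprioceptor library 2). Differences this large between libraries could hide a shared origin, so the correlations cannot decide whether the numbers pair the samples. With the replicate number as a block, 0 members passed in any comparison, and the medians were -1.68, -2.47 and 0.51. An unadjusted p under 0.05 was reached by 4, 5 and 3 of 37 members, against 1974, 2392 and 221 of 16130 genes. Rescaling TPM without the blank entry left the summed levels within their SD. At 27891186 to 44541262 counts per library, depth limits only the members with few counts.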

Other observations

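The members whose highest library differed from the common order included COL25A1, highest in nociceptor library 4, and COL7A1, at 6.55 TPM in the same library. In the 2 libraries where COL7A1 reached 5 TPM, proprioceptor library 2 and nociceptor library 4, 0% and 0.00125% of its matched transcript TPM lay in transcripts annotated as protein-coding, and the gap between the gene entry and its matched transcripts was 5.16% of the highest level. CNMD, a cartilage gene of the chondrocyte list, was at 9.19, 0.751 and 3.64 TPM in the proprioceptor libraries, 19.2, 8.26 and 0.106 TPM in the mechanoreceptor libraries and 0.106, 0.134, 0 and 4.27 TPM in the nociceptor libraries, high in libraries with little collagen. These values were chosen after they were seen.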
